A study of Mus musculus with 17 samples.

Results

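Immediate early genes are switched on within minutes of a stress or growth factor signal, without new protein synthesis. The 10 described here (Btg2, Ier2, Ier3, Cyr61, Fos, Jun, Junb, Egr1, Atf3 and Klf6) were taken by symbol from the deposited table of 48440 genes. Each symbol matched 1 row, and all 10 passed the filter on low values (a mean of at least 10 normalized counts), which kept 14588 genes. The table holds polyadenylated RNA of mouse liver in 17 libraries. Of these, 6 came from wild-type B6 mice aged 2 months (a widely used inbred strain), 5 from wild-type B6 mice aged 2 years, and 6 from 2-month-old mice carrying a miR-29 transgene. No source used here names the promoter of the transgene, the cells that express it or the strain background of the transgenic mice. The labels name each library as a separate sample without saying that each came from a separate animal, so p-values measure the spread between these libraries.

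The libraries fell into 2 batches that differ in library kit and sequencing site. Batch A held 10 libraries and batch B held 7, and each group had libraries in both. Every batch B library came from a male. Of 12 males and 5 females in total, 1 female was transgenic. Values are DESeq2-normalized counts made by the authors, with totals of 28077000 to 44543900 per library. Those totals are not read depths, so depth is unknown. All 10 hepatocyte markers examined were present in every group, with summed levels of 1953650 to 5706530 normalized counts per library, so the tissue label matched. Among the libraries, the transgenic female (replicate 3) and old male replicate 3 stood apart for several of the 10 genes. In a bulk sample, fewer cells of a type and less RNA per cell cannot be told apart.

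In resting liver these messages are usually scarce, and the signals that raise them act through mitogen-activated kinases, serum response factor and related factors bound at their promoters. Fos, Jun and Junb form the AP-1 dimers, Egr1 and Klf6 are zinc finger transcription factors, and Atf3 is a stress-induced factor of the ATF/CREB family. Btg2 restrains cell division and helps messages lose their poly(A) tails. Ier2 and Ier3 are short early response proteins, Ier3 with a known part in cell survival, and Cyr61 (also called Ccn1) is a secreted matrix protein known as a target of the YAP coactivator. Injury, loss of liver mass and tissue handling are known to raise many of them in liver. AU-rich elements in the 3′ UTR are known to shorten the life of such messages. The core motif ATTTA occurred in the longest annotated 3′ UTR of 9 of the 10 genes, all but Ier2, where 70% of 12971 tested genes with a 3′ UTR held it.

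Transgenic livers had more Btg2 and Ier3 and less Cyr61 than young wild-type livers, while none of the 10 genes passed the test with age. Of the differences with the transgene, only that of Btg2 also passed in each batch alone and in males alone. With the transgene 2 genes rose and 1 fell at a limma adjusted p under 0.05, where 2.89% of all 14588 genes rose and 3.83% fell (6.71% in either direction). The share of rises among all called genes was 43.0%, and 56.1% when libraries were scaled to equal totals, which moved the median of all genes to 0.14. The median log2 fold change of the 10 genes was 0.90, beside 0.01 over all genes tested. It was 0.48 without the transgenic female, 1.20 in batch A alone and 0.58 in batch B alone. With age the median was 0.55, beside -0.0027 over all genes, and it was 0.17 without old male replicate 3, 0.30 in batch B alone and 0.90 in males alone. There limma called 0 of the 10 genes and 0.144% of all genes. None of the 10 had an unadjusted p under 0.05 with age, where 8.73% of all genes did, and the authors' deposited table has none of them past an adjusted p of 0.05 either (1.77% of its 15814 genes). Both comparisons use the same 6 young wild-type libraries as controls.

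**Figure D1:**
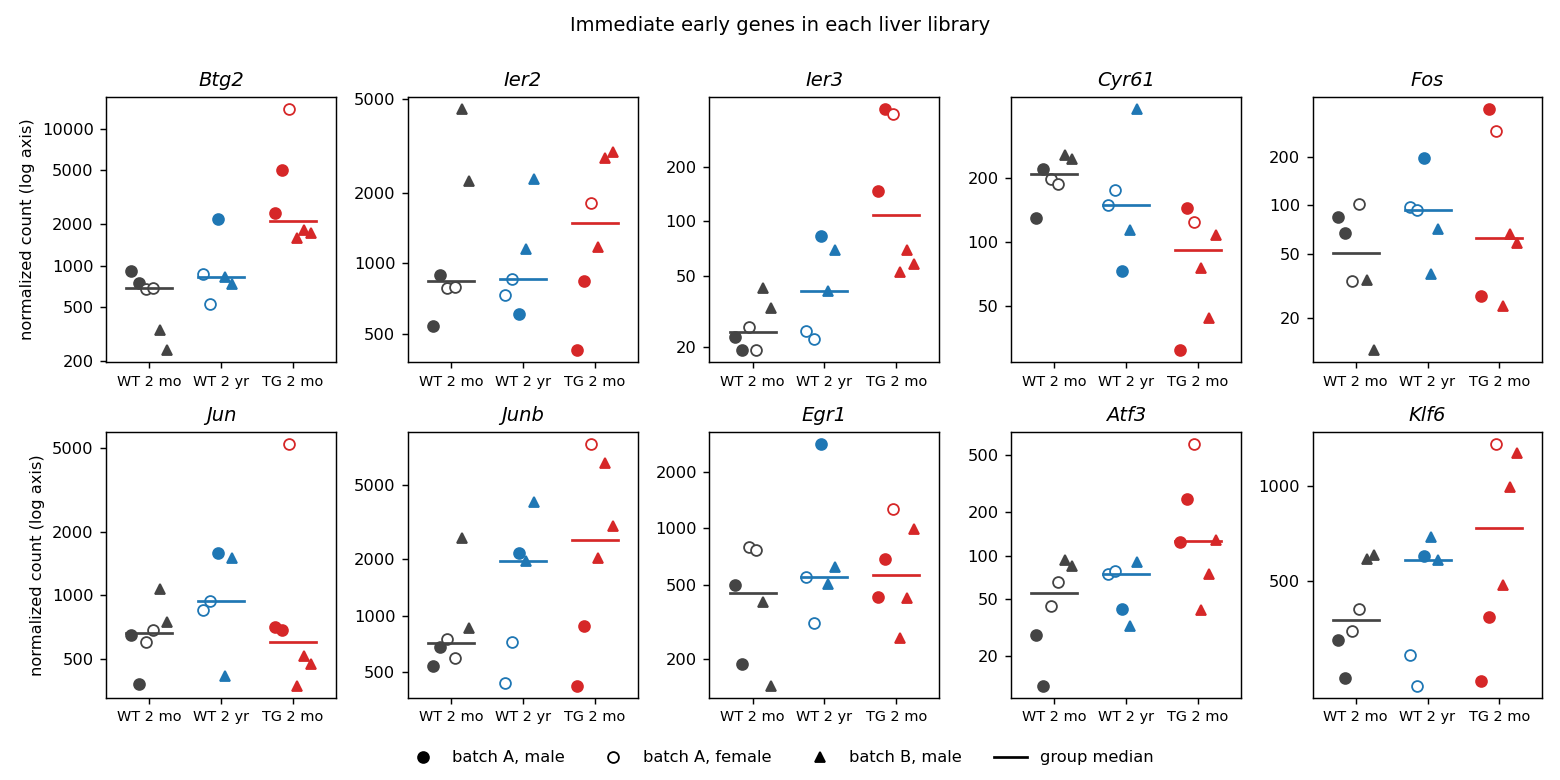
Normalized count (log axis) of each immediate early gene in each of 17 liver libraries, by group (WT 2 mo, young wild type; WT 2 yr, old wild type; TG 2 mo, transgenic). Circles are batch A, triangles batch B, open symbols females, and bars group medians. All 6 transgenic libraries lie above all 6 young wild-type libraries for Btg2 and Ier3, and the groups overlap for the other 8 genes.

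Btg2 (chr1:134075170-134079120, minus strand of GRCm38, the assembly that mm10 names) had the smallest transgene p of the 10. In young wild-type livers the lowest value was 240.2 normalized counts, the median 683.5 and the highest 908.7. The 5 old livers had 867.4, 522.8, 2173, 824.7 and 729.0 (replicates 1 to 5). In transgenic livers the lowest was 1588, the median 2110 and the highest 14024. Every transgenic library was above every young wild-type library. Over both batches, 1 old male (replicate 3) lay within the transgenic range and the other 4 old livers within the young range. Within batch B, both old livers (824.7 and 729.0) lay above both young ones (335.9 and 240.2). Over all genes tested, 1.11% had transgenic values wholly above those of young wild type. The means were 599 ± 256 (SD, n = 6) in young wild type and 4426 ± 4872 (SD, n = 6) in transgenic livers. Btg2 thus rose 6.44-fold with the transgene, or by 2.69 ± 0.40 on the log2 scale (± SE; limma adjusted p = 0.000575).

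The rise of Btg2 was present in both batches, whose levels differed. In batch A the 4 young wild-type libraries lay at 675.9 to 908.7 and the 3 transgenic ones at 2406, 4998 and 14024. In batch B the 2 young wild-type libraries had 335.9 and 240.2, and the 3 transgenic ones 1588, 1814 and 1727. Fitted alone, batch A gave 2.88 ± 0.63 (limma adjusted p = 0.0476) and batch B 2.58 ± 0.24 (adjusted p = 0.0102), and the difference between batches did not pass (-0.29 ± 0.78, adjusted p = 0.882). The highest value came from the 1 transgenic female. Without that library the log2 fold change was 2.13 ± 0.28 (adjusted p = 0.000369), and in males alone it was 2.36 ± 0.23 (adjusted p = 0.000164).

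Because the transgene encodes miR-29, the mature miR-29 sequences and their matches in these messages are shown. The members of the family share 1 seed (bases 2 to 8, in capitals), given here from RefSeq (GRCm38.p6).
mmu-miR-29a-3p: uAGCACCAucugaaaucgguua
mmu-miR-29b-3p: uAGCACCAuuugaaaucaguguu
mmu-miR-29c-3p: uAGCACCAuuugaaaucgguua
The reverse complement of that seed, TGGTGCT, was searched on the message strand in the longest GENCODE M21 3′ UTR of each gene, as was the shorter match GGTGCTA, which pairs with bases 2 to 7 and ends in A. Of the 10 genes, Btg2 held 1 of each, Fos held TGGTGCT once, Ier2 held GGTGCTA once and the other 7 held neither. Among 12971 tested genes with a 3′ UTR, 16.8% held TGGTGCT, 8.27% held GGTGCTA and 20.4% held either. The matches lie in the windows below on the GRCm38 build, with the strand of the message (minus for Btg2 and Ier2, plus for Fos), and capitals mark the match.
Btg2 3′ UTR, chr1:134076086-134076115: gctttagctcctTGGTGCTcagagcacctg
Btg2 3′ UTR, chr1:134075777-134075806: tttctgctcaaaGGTGCTAtttaccaaact
Ier2 3′ UTR, chr8:84661900-84661929: cgtgcgtccataGGTGCTAttaaaggactg
Fos 3′ UTR, chr12:85476832-85476861: ttggaattaaccTGGTGCTggattgtatct
Btg2, which held 2 of these 4 matches, is the gene with the largest rise, and Fos and Ier2 did not pass the test. Cyr61, the gene that fell, held neither match, and nor did Ier3, which rose. A match is a run of letters, no binding was measured here, and an effect of the matches on these genes was not tested.

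Ier3 (chr17:35821684-35822923, plus strand) was scarce in young wild-type liver, with a lowest value of 19.3 normalized counts, a median of 24.4 and a highest of 42.4. The old livers had 24.7, 22.4, 82.8, 40.9 and 69.4. In transgenic livers the lowest was 52.0, the median 107.4 and the highest 418.4. The transgenic and young wild-type groups did not overlap, and 2 old males (replicates 3 and 5) lay within the transgenic range. From 27.2 ± 9.03 (SD, n = 6) to 188.8 ± 170.5 (SD, n = 6), Ier3 rose 4.95-fold, or by 2.31 ± 0.52 on the log2 scale (limma adjusted p = 0.0126). In batch A the 4 young values were 19.3 to 25.8 and the transgenic ones 145.9, 418.4 and 390.0, which gave 3.62 ± 0.53 on the log2 scale (limma adjusted p = 0.0134). In batch B the young values were 42.4 and 33.0 and the transgenic ones 52.0, 68.9 and 57.6, and the value of 0.65 ± 0.43 did not pass (adjusted p = 0.429). The test of the difference between batches gave -2.97 ± 0.72 (adjusted p = 0.0801), so that difference missed the threshold. In males alone Ier3 had 1.93 ± 0.52 (adjusted p = 0.0528), and without the transgenic female 1.75 ± 0.48 (adjusted p = 0.0446).

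Cyr61 (chr3:145646976-145649981, minus strand; named Ccn1 in the annotation) was the member that fell. Young wild-type livers ran from 130.4 to 257.4 normalized counts with a median of 209.7. Old livers gave 150.6, 176.7, 73.1, 114.9 and 426.1. In transgenic livers the lowest was 31.0, the median 92.3 and the highest 145.6. The transgenic and young wild-type groups overlapped in 2 libraries, since 1 transgenic male at 145.6 was above 1 young male at 130.4, and the old group overlapped both. From 207 ± 45.9 (SD, n = 6) to 88.4 ± 45.8 (SD, n = 6), Cyr61 fell by 1.39 on the log2 scale (-1.39 ± 0.41, limma adjusted p = 0.0494). That call sits at the threshold. It was lost in 11 of the 12 fits that left out 1 library of either group (adjusted p up to 0.113), all but the one without transgenic replicate 2 (-1.71, adjusted p = 0.0133), and in each batch alone, at -1.01 ± 0.50 (adjusted p = 0.299) in batch A and -1.80 ± 0.61 (adjusted p = 0.165) in batch B, with the same sign throughout.

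The promoters of the 3 genes that passed are shown next, since 2 of them moved together and Cyr61 went the other way. Each window runs from 250 bases before to 50 after the transcript start in RefSeq (GRCm38.p6), at chr1:134079106-134079405 on the minus strand for Btg2, chr17:35821463-35821762 on the plus strand for Ier3 and chr3:145649936-145650235 on the minus strand for Cyr61. Capitals mark the searched motifs.
Btg2 promoter: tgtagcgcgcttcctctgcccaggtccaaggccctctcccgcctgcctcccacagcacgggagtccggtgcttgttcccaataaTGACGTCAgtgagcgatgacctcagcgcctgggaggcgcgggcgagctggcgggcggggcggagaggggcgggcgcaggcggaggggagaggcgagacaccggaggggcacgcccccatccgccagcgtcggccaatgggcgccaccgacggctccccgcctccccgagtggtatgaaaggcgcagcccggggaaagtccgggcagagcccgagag
Ier3 promoter: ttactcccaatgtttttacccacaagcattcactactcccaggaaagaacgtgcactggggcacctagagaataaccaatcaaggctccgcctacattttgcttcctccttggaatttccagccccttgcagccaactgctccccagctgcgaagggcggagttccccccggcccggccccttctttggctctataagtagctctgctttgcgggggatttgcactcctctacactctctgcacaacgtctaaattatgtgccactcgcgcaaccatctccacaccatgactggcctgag
Cyr61 promoter: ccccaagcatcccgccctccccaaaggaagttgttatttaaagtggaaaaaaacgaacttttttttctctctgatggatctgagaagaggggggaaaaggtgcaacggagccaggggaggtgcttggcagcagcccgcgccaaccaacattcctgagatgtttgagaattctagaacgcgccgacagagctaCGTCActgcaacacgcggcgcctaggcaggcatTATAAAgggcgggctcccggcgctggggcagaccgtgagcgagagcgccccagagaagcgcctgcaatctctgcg
The motifs, searched on both strands, were the cAMP response element TGACGTCA, its part TGACG (which lies within it), the AP-1 site TGANTCA, the TATA box TATAAA and the CArG box of serum response factor. Of 32851 RefSeq promoter windows, 1.79% held TGACGTCA, 20.8% TGACG, 7.81% TGANTCA, 13.6% TATAAA and 1.63% a CArG box. Btg2 held TGACGTCA 166 bases before its start. Cyr61 held TGACG 58 bases and TATAAA 25 bases before its start, and Ier3 held none of the 5. RefSeq windows were found for 8 of the 10 genes, all but Ier2 and Egr1. Of these 8, 5 held TGACG (Btg2, Cyr61, Fos, Junb and Atf3), 3 held TATAAA (Cyr61, Fos and Junb) and none held TGANTCA or a CArG box in this window. TATAAA lay 33 bases before the start in Fos and began at the annotated start itself in Junb.

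**Figure D2:**
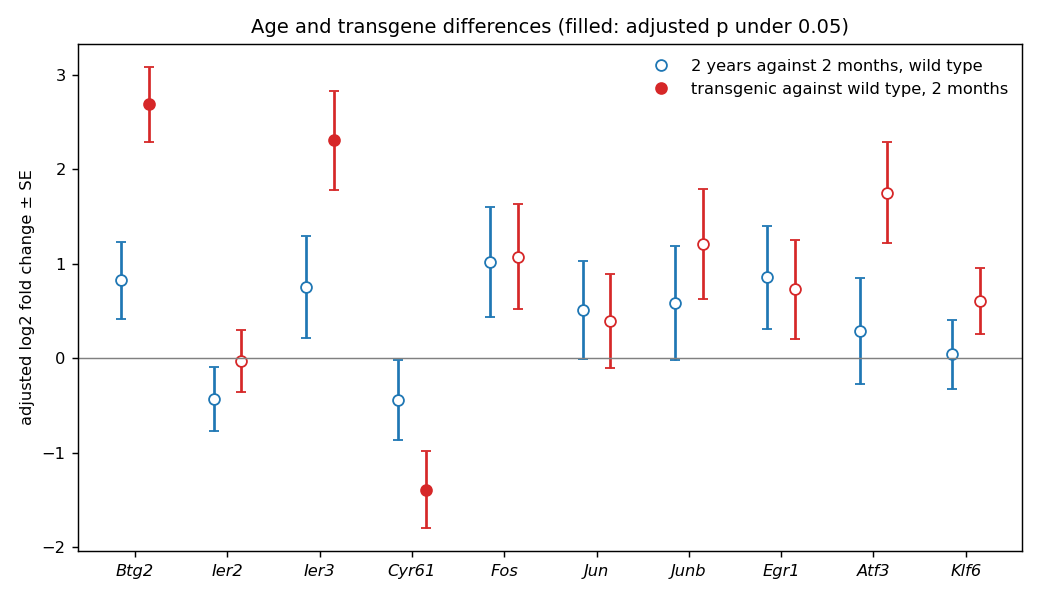
Adjusted log2 fold change ± SE of the 10 genes for old against young wild type and for transgenic against young wild type (17 libraries, batch and sex as terms), with filled points for a limma adjusted p under 0.05. Btg2 (2.69), Ier3 (2.31) and Cyr61 (-1.39) are the filled points, all from the transgene comparison.

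Atf3 (chr1:191170296-191218039, minus strand) missed the threshold in the whole set and differed between batches. Young wild-type livers ran from 12.5 to 92.6 normalized counts with a median of 55.3. In the old group Atf3 was at 74.4, 78.5, 42.4, 32.6 and 89.7. Transgenic livers ran from 42.1 to 593.9 with a median of 126.6. Over all libraries the log2 fold change with the transgene was 1.75 ± 0.54 (limma adjusted p = 0.0596). In batch A the 3 transgenic libraries had 124.7, 248.9 and 593.9 and the 4 young ones 12.5 to 65.6, without overlap (3.23 ± 0.39, adjusted p = 0.00561). In batch B the transgenic libraries had 42.1, 74.1 and 128.5 and the young ones 92.6 and 84.8, so the groups overlapped (-0.26 ± 0.61, adjusted p = 0.84). The difference of the effect between batches passed (-3.49 ± 0.71, adjusted p = 0.0414), where 0.5% of all genes did. It passed in 2 of the 12 fits that left out 1 library of either group. In males alone it was -3.42 with an adjusted p of 0.272. The authors' deposited table has Atf3 past an adjusted p of 0.05 (log2 fold change 1.87, adjusted p = 0.00697).

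**Figure D3:**
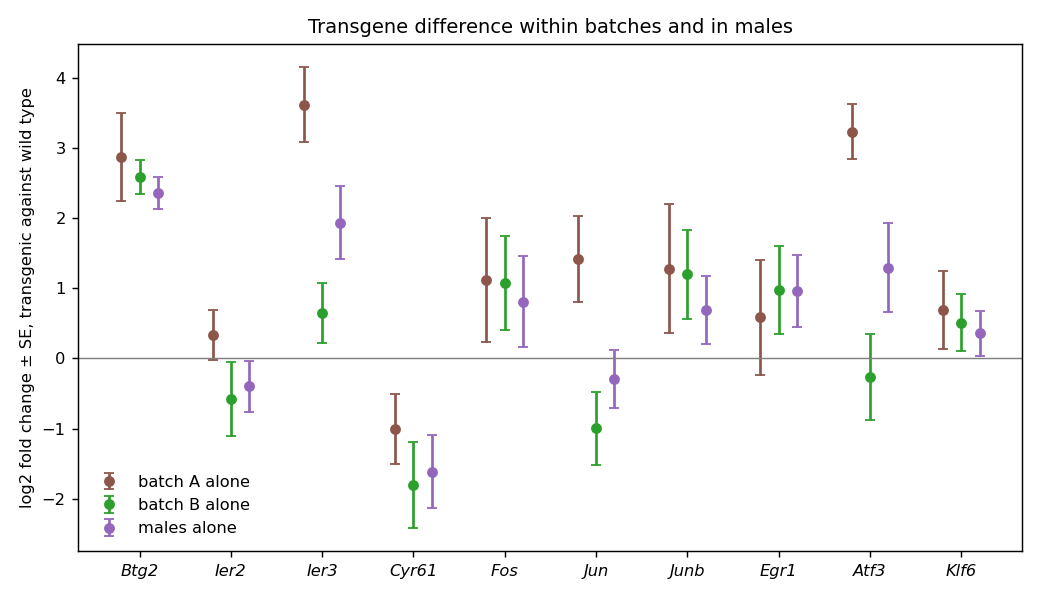
Log2 fold change ± SE of transgenic against young wild type for the 10 genes in batch A alone (4 young and 3 transgenic libraries), batch B alone (2 and 3) and males alone (4 and 5). Btg2 is between 2.36 and 2.88 in all 3 settings, while Atf3 is at 3.23 in batch A against -0.26 in batch B.

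The AP-1 genes did not pass with the transgene. Fos (chr12:85473890-85477273) ran from 12.7 to 102.2 normalized counts in young wild type with a median of 50.9, and from 23.9 to 396.5 in transgenic livers with a median of 62.5. Fos in the 5 old livers was 97.6, 93.8, 197.5, 37.6 and 71.7. The 2 highest transgenic values, 396.5 and 287.3, came from batch A, whose other transgenic library had 27.3. Its log2 fold change was 1.08 ± 0.56 with the transgene (limma adjusted p = 0.287) and 1.02 ± 0.58 with age (adjusted p = 0.611). Without transgenic replicate 1 the transgene value was 1.65 (limma adjusted p = 0.0247). Leaving out transgenic replicate 2 or replicate 3, which held the 2 highest values, gave 0.71 and 0.72, and neither passed.

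Jun (chr4:95049034-95052222) ran from 376.2 to 1076 in young wild type with a median of 662.7, and the old livers had 854.4, 936.8, 1585, 410.9 and 1497. Of the 6 transgenic libraries, 5 lay between 371.0 and 710.2 and the transgenic female had 5245. The log2 fold change with the transgene was 0.39 ± 0.50 (limma adjusted p = 0.716), and without that female it was -0.31 ± 0.35 (adjusted p = 0.74). The sign for Jun thus rested on 1 library. With age Jun had 0.51 ± 0.52 (adjusted p = 0.75), and 0.17 ± 0.56 (adjusted p = 0.94) without old male replicate 3. The difference between batches was -2.41 ± 0.87 (adjusted p = 0.205).

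Junb (chr8:84974484-84978718) ran from 540.2 to 2594 in young wild type with a median of 720.4, and from 424.0 to 8248 in transgenic livers with a median of 2533. Junb in the 5 old livers was 438.2, 723.3, 2175, 1973 and 4061. All 3 groups overlapped. Junb had log2 fold changes of 1.21 ± 0.58 with the transgene (limma adjusted p = 0.241) and 0.59 ± 0.60 with age (adjusted p = 0.752). Its transgene value was 0.46 ± 0.46 (adjusted p = 0.698) without the transgenic female, and its age value was 0.029 ± 0.612 (adjusted p = 0.994) without old male replicate 3. In the authors' deposited table Fos (1.47, adjusted p = 0.0432) and Junb (1.43, adjusted p = 0.0246) are past the threshold with the transgene, and 6 of the 10 genes are, where 14.1% of its 15714 genes are.

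Neither zinc finger gene passed the test with the transgene or with age. Egr1, on chromosome 18, ran from 143.7 to 798.1 in young wild type with a median of 450.1 and from 258.6 to 1262 in transgenic livers with a median of 558.9. The old livers had 546.1, 310.2, 2820, 500.6 and 616.9, so 4 of 5 lay within the young range and old male replicate 3 was far above it. The log2 fold change was 0.73 ± 0.53 with the transgene (limma adjusted p = 0.473) and 0.86 ± 0.55 with age (adjusted p = 0.64), and 0.16 ± 0.48 with age without that male (adjusted p = 0.934). Klf6 (chr13:5861482-5870394) ran from 247.4 to 604.4 in young wild type with a median of 378.2 and from 242.3 to 1362 in transgenic livers with a median of 740.3. The old livers had 292.0, 233.5, 603.7, 691.2 and 584.7. Klf6 had 0.61 ± 0.35 with the transgene (adjusted p = 0.354), where 3 transgenic libraries (993, 1275 and 1362) lay above all young and old ones, and 0.04 ± 0.37 with age (adjusted p = 0.979). The highest of the 3 is the transgenic female, without which the transgene value for Klf6 was 0.20 ± 0.31 (adjusted p = 0.815). Without old male replicate 3 the age value for Klf6 was -0.35 ± 0.35 (adjusted p = 0.786).

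Ier2 (chr8:84661331-84662852) passed for batch and for neither group comparison. It ran from 542.2 to 4541 in young wild type with a median of 840.8 and from 426.9 to 2970 in transgenic livers with a median of 1485. The old livers had 733, 858.4, 606.6, 1147 and 2292. The log2 fold change was -0.03 ± 0.32 with the transgene (limma adjusted p = 0.976; 0.11 when scaled to equal totals) and -0.43 ± 0.34 with age (adjusted p = 0.687). Libraries of batch B had a median of 2292 against 788.8 in batch A, and the batch term was 1.83 ± 0.33 (adjusted p = 0.00049). Of the 10 genes, 5 passed for the batch term, where 42.7% of all genes did. Higher in batch B were Ier2, Junb (1.62 ± 0.58, adjusted p = 0.0348) and Klf6 (1.03 ± 0.35, adjusted p = 0.0272), and lower were Btg2 (-1.27 ± 0.40, adjusted p = 0.0177) and Fos (-1.56 ± 0.56, adjusted p = 0.0341). None passed for sex (0 of 10 also at an unadjusted p under 0.05, where 0.26% and 9.37% of all genes passed in limma).

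With age the fitted values of 8 of the 10 genes were above 0, as were 49.7% of all genes, and none passed. The largest were Fos (1.02 ± 0.58), Egr1 (0.86 ± 0.55) and Btg2 (0.82 ± 0.41, limma adjusted p = 0.58). Cyr61 and Ier2, the 2 below 0, had -0.44 ± 0.42 and -0.43 ± 0.34. In males alone Btg2 had 1.39 ± 0.27 with age (limma adjusted p = 0.0511). In a separate fit of both sexes without old male replicate 3, Btg2 had 0.56 ± 0.45 (limma adjusted p = 0.742). The age value of Btg2 was 1.45 ± 0.27 in batch B alone (limma adjusted p = 0.117) and 0.41 ± 0.63 in batch A alone, and neither passed. Egr1 was higher in all 3 old males than in all 4 young males, with 1.94 ± 0.58 (adjusted p = 0.126), and groups of males did not overlap upward for 3.86% of all genes. No difference of the age effect between batches passed for the 10 genes (0 at an unadjusted p under 0.05, where 0.0206% and 22.5% of all genes passed in limma).

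The transgenic and old groups were then compared with each other, which tests whether a gene differs between the 2 effects that share the young controls, with genotype and age both changed. Btg2 was higher in transgenic livers by 1.86 ± 0.42 (limma adjusted p = 0.0239), the 1 of 10 genes that passed, where 2.55% of all genes did. In males alone the Btg2 value was 0.96 ± 0.25 (adjusted p = 0.109), in batch A alone 2.47 ± 0.69 (adjusted p = 0.132) and in batch B alone 1.14 ± 0.24 (adjusted p = 0.155), none of which passed. The call was also lost without old replicate 1 (1.75, adjusted p = 0.0609) and without old replicate 5 (1.99, adjusted p = 0.0513). Ier3 had 1.55 ± 0.55 (adjusted p = 0.17), Atf3 1.47 ± 0.57 (adjusted p = 0.215) and Cyr61 -0.95 ± 0.43 (adjusted p = 0.296). Fos, Egr1 and Jun had 0.06 ± 0.59, -0.13 ± 0.56 and -0.12 ± 0.53, and Junb, Klf6 and Ier2 had 0.63 ± 0.61, 0.56 ± 0.37 and 0.40 ± 0.34. By group median, Btg2, Ier3, Junb, Egr1, Atf3 and Klf6 were lowest in young wild type, intermediate in old and highest in transgenic livers, and Ier2 had the same order with young and old at 840.8 and 858.4. For Cyr61 the order was reversed, and Fos and Jun were highest in old livers. These medians pool batches that the groups hold in unequal shares, and the fit with batch and sex gave other orders for Ier2, Egr1, Fos and Jun. There Ier2 was highest in young wild type (-0.43 with age and -0.03 with the transgene), Egr1 was lower in transgenic than in old livers (-0.13) and Fos was not (0.06). By median Jun was lowest in transgenic livers (599.5, against 662.7 in young wild type). In the fit Jun was lowest in young wild type (0.51 with age and 0.39 with the transgene). Apart from the called differences, neighbours in these orders did not pass the test.

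A few libraries held most of the extreme values. The transgenic female held the highest value of its group for 6 of the 10 genes and of all 17 libraries for 5 (Btg2, Jun, Junb, Atf3 and Klf6). That library also had the lowest total (28077000) and the lowest hepatocyte marker sum (1953650) of the 17. Its sums of macrophage and monocyte markers (6119) and of cholangiocyte markers (713.5) were the lowest too, while those of the other marker lists were not. A link between these values was not tested. Among old livers, male replicate 3 was highest for 5 genes and male replicate 5 for 4. Young male replicate 5 of batch B was highest of its group for 6. The coefficient of variation (SD over mean) was larger in transgenic than in young wild-type livers for 8 of the 10 genes and for 52% of all genes, and for 7 of the 10 genes and 45.5% of all genes without the transgenic female. Jun had the widest gap, at 144% against 33.3%, and Cyr61 had 51.8% against 22.2%. Ier2 (62.7% against 95.0%) and Egr1 (57.0% against 59.5%) were the exceptions. Without the transgenic female the transgenic value was 26.2% for Jun, below young wild type, and 58.0% for Cyr61, above it. All these coefficients pool 2 batches that the groups hold in unequal shares, so they include differences between batches. For Ier2 the young values were 542.2 to 890.3 normalized counts in batch A, and 4541 and 2230 in batch B.

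Markers of other cell types moved with the transgene as well. Of 11 measured neutrophil markers 10 rose (median log2 fold change 5.05), and the sum of all 12 listed ran from 55.7 to 508.9 normalized counts in young wild type, 136.9 to 2329 in old and 527.8 to 48541 in transgenic livers. Ly6g was at 0 in all 6 young wild-type libraries. Within the transgenic group, the 2 libraries with the lowest sums (527.8 and 720.5, males of batch A) had Btg2 at 4998 and 2406 and Ier3 at 418.4 and 145.9, and the transgenic female of batch A had a sum of 7877 with Btg2 at 14024 and Ier3 at 390.0. The 3 batch B libraries had sums of 7968 to 48541 with Btg2 at 1588 to 1814 and Ier3 at 52.0 to 68.9. Over all groups, the Btg2 level was itself lower in batch B. For the batch term 6 of the 11 neutrophil markers passed as higher in batch B and 0 as lower (median 2.56), where 21.4% of all genes were higher. A link of these sums with Btg2 or Ier3 apart from batch was not tested. Of 8 erythroid markers 5 rose, with sums of 17403 to 202172 in young wild type and 25144 to 1593510 in transgenic livers. The other erythroid markers had values below 0 that did not pass, with Hba-a1 at -2.09, Hba-a2 at -2.08 and Alas2 at -1.09. Of 10 macrophage and monocyte markers 1 rose (Marco), with sums of 9387 to 16256 and 6119 to 56635, and of 10 endothelial markers 1 rose (Stab2), with sums of 4575 to 8492 and 6539 to 17599. Of 10 measured T, NK and B cell markers 1 rose (Ighm). Falls were seen for 1 of 10 stellate and fibroblast markers (Col1a1), 1 of 5 measured cholangiocyte markers (Spp1) and 1 of 10 hepatocyte markers (Serpina1c). The part of these cells in the changes of the 10 genes was not tested beyond these values.

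**Figure D4:**
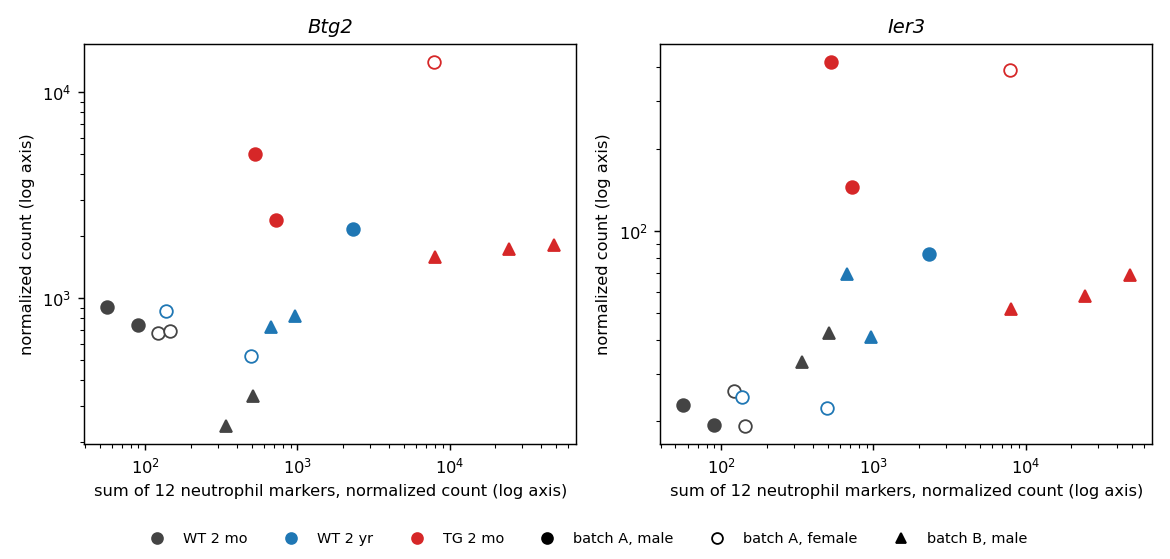
Btg2 and Ier3 (normalized count, log axis) against the sum of 12 neutrophil markers (normalized count, log axis) in each of 17 libraries, with colours for groups and circles and triangles for batches A and B. The transgenic libraries of batch A sit at sums of 527.8, 720.5 and 7877 with Btg2 at 4998, 2406 and 14024. Those of batch B sit at sums of 7968 to 48541 with Btg2 at 1588 to 1814. Over all groups, Btg2 was lower in batch B and 6 of 11 measured neutrophil markers were higher there.

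Other immediate early genes, a list of 39 of which 35 were measured, moved in part with the transgene. In limma 4 rose and 1 fell, where 2.89% of all genes rose and 3.83% fell, with a median of 0.52. Ier5, a relative of Ier2, rose from 188.6 ± 39.1 (SD, n = 6) to 537 ± 233 (SD, n = 6), or by 1.31 ± 0.20 on the log2 scale (limma adjusted p = 0.000877). Cebpd, a C/EBP factor of the acute-phase response (1.35 ± 0.31, adjusted p = 0.0142), and Gadd45b, a growth arrest and stress gene (1.76 ± 0.47, adjusted p = 0.0323), rose too. The other rise was that of Fosl2, a partner of Jun, named after its value was seen (1.78 ± 0.51, adjusted p = 0.0447). Klf10, a TGF-beta-induced relative of Klf6, fell from 1084 ± 465 to 183.3 ± 73.9 (-2.30 ± 0.33, adjusted p = 0.000525). Without the transgenic female 1 rose (Ier5) and 1 fell (Klf10), with a median of 0.22 (5.06% of all genes called). Batch A alone called 2 rises and 1 fall (3.39% of all genes) and batch B alone called 0 (1.8% of all genes). With age limma called 0 of the 35 (1 had an unadjusted p under 0.05), with a median of 0.23, and Plk2 had the smallest p (0.79 ± 0.33, adjusted p = 0.535).

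**Figure D5:**
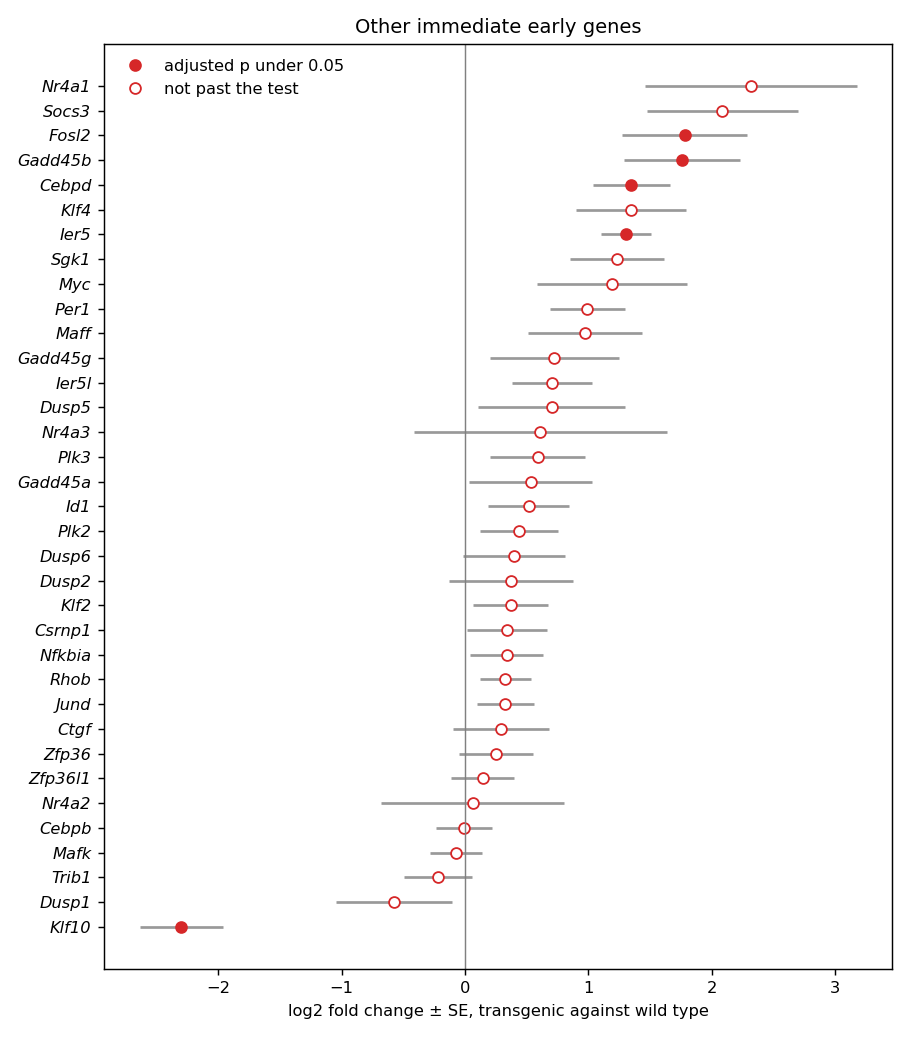
Log2 fold change ± SE (transgenic against young wild type, 17 libraries) of the 35 measured genes of the list of other immediate early genes, with filled points for a limma adjusted p under 0.05. The 4 filled rises lie between 1.31 and 1.78, and Klf10 lies at -2.30.

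Of the 7 lists of upstream and neighbouring pathways, each had 0 to 2 called genes with the transgene, where 6.71% of all genes were called and 21.2% had an unadjusted p under 0.05. Among 22 kinases and factors that act ahead of these genes limma called 0 with the transgene (2 at an unadjusted p under 0.05, median 0.05), and Egfr, the epidermal growth factor receptor, had the smallest p (-1.16 ± 0.49, adjusted p = 0.175). Of 11 measured YAP/TEAD targets, the class to which Cyr61 belongs, 0 passed (2 unadjusted, median 0.01), with Amotl2 at -0.81 ± 0.31 (adjusted p = 0.134). Of 19 p53 targets, a class that includes Btg2 but was listed without it, Perp fell (-0.998 ± 0.249, limma adjusted p = 0.0235), with a median of 0.17. At an unadjusted p under 0.05, 4 of the 19 rose and 3 fell. Of 14 integrated stress response genes, the pathway in which Atf3 acts, Vldlr (2.80 ± 0.50, limma adjusted p = 0.00244) and Asns (2.38 ± 0.49, adjusted p = 0.00734) rose, with a median of 0.29. Without adjustment, 3 of the 14 rose and 2 fell at a p under 0.05. The 2 falls, named after their values were seen, were Gdf15 (-2.42 ± 0.75, limma adjusted p = 0.0634) and Fgf21 (-3.05 ± 1.04, adjusted p = 0.0905).

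Of 12 heat shock genes Hspb1 fell (-1.96 ± 0.48, limma adjusted p = 0.0217; median -0.21). Among 12 glucocorticoid and fasting targets, Igfbp1 (3.07 ± 0.58, adjusted p = 0.00364) and Ppargc1a (1.48 ± 0.41, adjusted p = 0.0394) rose, with a median of 0.87. Of 16 clock genes, the repressor Nr1d1 fell (-2.96 ± 0.70, limma adjusted p = 0.0166), with a median of 0.10. At an unadjusted p under 0.05 with the transgene, 6 of the 12 glucocorticoid and fasting targets rose and 1 fell. By the same rule 3 clock genes rose and 1 fell, and 0 heat shock genes rose and 1 fell. With age limma called 0 in each of these 7 lists, and 0 to 2 genes of a list had an unadjusted p under 0.05. Their medians with age ran from -0.34 (heat shock) to 0.34 (clock).

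The genes whose pattern was most like the mean standardized profile of the 10 were found over the 17 libraries by the mean absolute difference of standardized log2 values. They were 2410131K14Rik (0.39), Gimap6 (0.453), Tma16 (0.455), Cyp2a5 (0.456) and Ptpn2 (0.457). The median over all other genes was 0.905. The 10 genes themselves differed from their own mean profile by 0.477 (Ier3) to 0.992 (Cyr61), and Cyr61 lay farther from it than the median gene.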

How the data were processed

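Polyadenylated liver RNA of 17 libraries was analysed. The values are normalized counts (a signal, not whole reads) that the authors deposited, made with DESeq2, and STAR 2.5.3a, Salmon 0.6.0, DESeq2 and mm10 are named in the submitters' processing notes. No source used here names the annotation behind the counting. The authors' deposited tables of log2 fold changes, scores and p-values were read for side-by-side values only. Genes with a mean of at least 10 were kept (14588 of 48440), and log2(value + 1) was fitted with limma 3.58.1 (R 4.3.3) on group, batch and sex, with Benjamini-Hochberg adjustment over all 14588 genes. The pseudocount of 1 makes fold changes of low genes smaller. Interactions of group with batch were fitted in the same way. Alternatives were pseudocounts of 0.5 and 5, no filter, a minimum mean of 50, scaling to equal totals or by TMM factors, computed in R, males or 1 batch alone, no batch and sex terms, a replicate block, only the groups compared, and leaving out each library. Medians of the 10 genes and counts of the other immediate early genes in these subsets were added after the values were seen. The code was tested on simulated data. The 10 genes and the lists were chosen with earlier results of these data known. Named from each list were the called genes, up to 4 by smallest p, otherwise the gene with the smallest p. No 2 libraries held identical values. Depth is unknown, so no counting intervals are given. 3′ UTRs came from GENCODE M21 and sequences from RefSeq (GRCm38.p6).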

Additional observations from a re-analysis of the deposited data

Results flagged for a closer look

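In 6 of the 30 sets examined (10 genes in 3 groups) 1 library lay far above the rest of its group, where chance gives about 1 in 20 for normally distributed values. Normalized counts are skewed and the 6 sets come from 3 libraries, so that rate is only a guide. The transgenic female (replicate 3) had Btg2 at 14024 normalized counts against 4998 for the next library, Jun at 5245 against 710.2 and Atf3 at 593.9 against 248.9. Old male replicate 3 had Btg2 at 2173 against 867.4 and Egr1 at 2820.2 against 616.9. Young male replicate 5 had Junb at 2594 against 857.8.

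The transgene effect on Atf3 differed between batches by -3.49 on the log2 scale in a test of the difference itself (limma adjusted p = 0.0414).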

How the results depend on the processing

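Btg2 kept its rise and its call with the transgene under every alternative run. Ier3 lost its call in males (adjusted p = 0.0528) and in batch B (adjusted p = 0.429), and Cyr61 lost it under most. Of the 10 genes, 3 were called with the transgene, 1 in males, 1 in batch B, 6 in the authors' deposited table and 2 to 3 without 1 library. Between transgenic and old, the 1 call became 0 in males, without batch and sex terms, in batch B and with only the groups compared, and was 0 to 1 without 1 library. In batch A the 1 call was Atf3 (2.51, adjusted p = 0.0321) in place of Btg2 (2.47, adjusted p = 0.132). For the transgene by batch difference the 1 call became 0 with a minimum mean of 50, equal totals or males, and was 0 to 2 without 1 library. The causes were not tested.

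Genes called with age numbered 21, and 9 with a minimum mean of 50, 41 in males, 5 without terms, 11 with the replicate block, 1 in batch A, 0 in batch B, 10 with only the groups compared, 280 in the authors' deposited table and 9 to 26 without 1 library. With the transgene 979 became 421 without terms, 495 in batch A, 263 in batch B, 2211 in the authors' deposited table and 653 to 1100 without 1 library. Between transgenic and old 372 became 175 in males, 139 without terms, 247 with the replicate block, 175 in batch A, 45 in batch B, 120 with only the groups compared and 161 to 525 without 1 library. The age by batch difference called 3 genes, and 13 or 0 with pseudocounts of 0.5 or 5, 52 unfiltered, 34 with equal totals, 10 with TMM, 0 in males and 0 to 237 without 1 library. The transgene by batch difference called 73, and 147 unfiltered, 27 with a minimum mean of 50, 34 with equal totals, 2 in males and 3 to 238 without 1 library.

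Signs turned only for genes not called. With the transgene Ier2 was 0.11 with equal totals, 0.17 without terms, 0.062 with the replicate block, 0.33 in batch A, 0.0055 in the authors' deposited table and -0.29 to 0.22 without 1 library. Jun was -0.29 in males, -0.998 in batch B and -0.31 to 0.68 without 1 library, and Atf3 -0.26 in batch B. With age Jun was -0.19 and Atf3 -0.70 in batch B, and Klf6 -0.35 to 0.25 without 1 library. Between transgenic and old, Fos was -0.45 in males, -0.082 without terms, -0.0072 with the replicate block, -0.19 in batch B and -0.33 to 0.55 without 1 library. In males Junb was -0.49 and Klf6 -0.077, and in batch A Jun was 0.59. Without 1 library Jun was -0.88 to 0.23, Junb -0.18 to 1.19 and Egr1 -0.46 to 0.58.

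For age by batch Ier3 was 0.23 with equal totals, and in males Fos was -0.10, Junb -0.91, Egr1 -2.01 and Klf6 -0.997. Without 1 library Cyr61 was -0.48 to 1.40, Egr1 -0.20 to 2.09, Fos -0.28 to 1.09, Ier3 -0.62 to 0.55, Junb -0.24 to 1.90 and Klf6 -0.27 to 0.97. For transgene by batch Fos was 0.0011 with equal totals, and in males Btg2 was 0.51, Fos 0.61, Junb 1.19 and Klf6 0.40. Without 1 library Btg2 was -0.90 to 0.79, Egr1 -0.35 to 1.14, Fos -1.24 to 0.75, Junb -0.88 to 1.61 and Klf6 -0.63 to 0.73.

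The labels do not say what a replicate number shares. Of 16 same-numbered pairs 13 correlated above 0.1 in their deviations from group means (-0.23 to 0.59), 7 after batch and sex, and 5 of 17 libraries correlated best with their own number. Since not every pair passed 0.1, the numbers were not taken to pair libraries. With the replicate block Btg2 and Ier3 kept their transgene calls and Cyr61 lost its own (adjusted p = 0.095). Depth is unknown, and batch B held no females.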
